A study of Mus musculus with 6 samples.

Results

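The peaks described here are those that lie on short interspersed elements (SINEs) in bone marrow-derived macrophages (BMDMs) of the mouse, as mapped by chromatin immunoprecipitation and sequencing (ChIP-seq) and given in 6 peak lists. A peak was taken when its deposited detailed annotation named the repeat class SINE, and it was then grouped by repeat family (Alu, B2, B4, MIR and the rarer ID, Deu and tRNA) and by element name. This gave 4622 of 134964 peaks. They were 851 of 24486 in the C/EBPα control list and 844 of 24612 after IL-4, 1278 of 37525 and 1460 of 42076 for IRF8, and 118 of 3940 and 71 of 2325 for JUNB. The BMDMs came from wild-type mice aged 8 to 12 weeks, and marrow was grown for 6 days with L929 supernatant, a source of macrophage colony-stimulating factor (MCSF). Control cells received no IL-4, and the others received IL-4 at 20 ng/ml for 1 h. Each factor had 1 control and 1 IL-4 library, so no value below has a replicate, and the 95% intervals given (Wilson for shares, binomial for medians) cover counting error over peaks of 1 library and not the spread between cultures. Read numbers were not in the files used here, so depth is unknown.

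SINEs are short repeats without a protein of their own, copied through RNA by the machinery of LINE elements. B1 elements, which the annotation files under Alu, derive from the 7SL RNA of the signal recognition particle, B2 and ID elements derive from transfer RNAs, B4 elements join an ID-like and a B1-like part, and MIR elements are old copies shared among mammals. AmnSINE1, of the Deu family, is an old element shared among amniotes. Copies of a repeat can carry short letters that a transcription factor reads, and C/EBPα, IRF8 and JUNB are factors that occupy macrophage enhancers. IL-4 activates STAT6, which reads palindromes of TTC and GAA. As a check of the cell label, all 6 macrophage markers examined (the gene of PU.1, Csf1r, Cd68, Emr1, Mrc1 and Lyz2) were the nearest gene of at least 1 peak in the C/EBPα and IRF8 lists of both conditions, whereas Cd3e, Cd8a, Ly6g and Ngp, which mark T cells and neutrophils, had 0 peaks in every list. The B-cell gene Ms4a1 had 1 to 6 peaks per list.

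The sequences below are from the mm10 assembly and are shown because they carry the letters on which the SINE families differed. Letters in capitals mark a motif of the factor named. The first set are IRF8 peaks on B2 elements, read on the strand that carries GGAACTGAA, an ETS-IRF composite site (GGAANNGAA, where N is any base) to which IRF8 binds with PU.1. They are the B2 peaks with the highest IRF8 control score that held these letters.
Got1, B3 element, chr19:43512093-43512141, minus strand: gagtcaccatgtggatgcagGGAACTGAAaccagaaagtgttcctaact
Ppp2r5a, B3 element, chr1:191458452-191458500, minus strand: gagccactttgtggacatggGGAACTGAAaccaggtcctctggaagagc
S100a6, B3A element, chr3:90617709-90617757, plus strand: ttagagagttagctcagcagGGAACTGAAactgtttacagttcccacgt
Most frequent letter in over 50% of 43 such sites, otherwise n: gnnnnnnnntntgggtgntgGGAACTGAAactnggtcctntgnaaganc

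The next set are some of the 7 AmnSINE1 elements under JUNB control peaks and need not stand for the others. AP-1 sites (TGANTCA), the letters read by JUNB, are in capitals. Near Maml3 and Gm20125, which are not shown, a stretch of 100 bases held only 1 of the sites. Below them are the strongest JUNB control peaks on a B2 and a B4 element.
Eps8, AmnSINE1 element, chr6:137559008-137559107, plus strand: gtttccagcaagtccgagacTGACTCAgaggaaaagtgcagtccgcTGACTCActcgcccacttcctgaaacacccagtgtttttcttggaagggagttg
Ank, AmnSINE1 element, chr15:27518224-27518323, plus strand: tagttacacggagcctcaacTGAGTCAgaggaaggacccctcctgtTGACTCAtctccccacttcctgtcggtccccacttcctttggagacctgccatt
Tnfrsf11a, AmnSINE1 element, chr1:105790260-105790359, plus strand: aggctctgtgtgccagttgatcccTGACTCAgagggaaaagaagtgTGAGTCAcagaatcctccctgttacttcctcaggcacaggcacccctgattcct
Jazf1, B3A element, chr6:52825733-52825832, plus strand: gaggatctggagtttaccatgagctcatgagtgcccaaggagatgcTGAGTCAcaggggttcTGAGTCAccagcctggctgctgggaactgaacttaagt
Tlr5, B4A element, chr1:182944834-182944933, plus strand: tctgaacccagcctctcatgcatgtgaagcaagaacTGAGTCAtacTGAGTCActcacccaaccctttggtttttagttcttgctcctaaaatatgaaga

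The third set are the strongest C/EBPα control peaks on a B2 and a B4 element, with the C/EBP site (TTGCNNAA) in capitals.
Nemf, B3 element, chr12:69331316-69331415, plus strand: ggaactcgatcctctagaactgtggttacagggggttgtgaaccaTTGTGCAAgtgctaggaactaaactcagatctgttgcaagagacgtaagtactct
C3ar1, ID_B1 element, chr6:122863027-122863126, plus strand: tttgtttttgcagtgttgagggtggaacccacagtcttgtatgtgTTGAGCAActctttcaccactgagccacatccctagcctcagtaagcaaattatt

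The last set are B2 peaks called only after IL-4 that held a STAT6-type site (TTC, 4 bases, GAA), which is in capitals. Such peaks on other SINE families are not shown. Camk2d and Tex9 were C/EBPα peaks, Dnajc19 an IRF8 peak, and Atp6v0a1, Cmtm7 and Patl1 JUNB peaks.
Camk2d, B3A element, chr3:126586707-126586756, minus strand: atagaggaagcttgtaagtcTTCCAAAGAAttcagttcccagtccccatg
Tex9, B3A element, chr9:72485675-72485724, plus strand: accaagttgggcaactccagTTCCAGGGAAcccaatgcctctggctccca
Dnajc19, B3A element, chr3:34062333-34062382, plus strand: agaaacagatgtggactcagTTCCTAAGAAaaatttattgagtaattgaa
Atp6v0a1, B3 element, chr11:100994289-100994338, plus strand: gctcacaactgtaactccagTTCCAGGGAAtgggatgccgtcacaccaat
Cmtm7, B3 element, chr9:114783339-114783388, minus strand: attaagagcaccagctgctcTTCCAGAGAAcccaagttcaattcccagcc
Patl1, B3A element, chr19:11928327-11928376, plus strand: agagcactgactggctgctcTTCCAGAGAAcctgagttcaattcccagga
Most frequent letter in over 50% of 16 B2 sites with TTCCAGAGAA in the IL-4 lists, otherwise n: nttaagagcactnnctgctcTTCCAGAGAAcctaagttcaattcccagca

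SINEs held a small and similar share of the peaks of every list. In control the share was 3.48% for C/EBPα (3.25% to 3.71%), 3.41% for IRF8 (3.23% to 3.59%) and 2.99% for JUNB (2.51% to 3.57%). After IL-4 it was 3.43%, 3.47% and 3.05%, within the control intervals of the same factor. LTR elements (10892 peaks over the 6 lists) and LINE elements (7658 peaks) were under more peaks. Promoters, exons and transcript ends are ranked above repeats in the annotation, so every SINE peak lay in an intron or between genes, and over those peaks alone the control shares were 3.90%, 3.84% and 3.19%. In the C/EBPα control list 57.5% of the SINE peaks were intronic, and in the IRF8 control list 57.4%. The median distance to the nearest transcription start site (TSS) was 17943 bp for C/EBPα SINE peaks and 18236 bp for IRF8, against 20235 and 20951 bp over all peaks.

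The factors differed in which SINE families lay under their peaks. MIR elements made up 39.2% of the C/EBPα control SINE peaks (36.0% to 42.6%) and 26.8% of those of IRF8 (24.5% to 29.3%). B2 elements made up 12.1% for C/EBPα (10.1% to 14.5%) and 19.9% for IRF8 (17.8% to 22.2%). In neither family did the intervals meet. Alu elements took 18.4% and 24.2%, and B4 elements 26.8% and 24.6%. The JUNB control list, with 118 SINE peaks, had 33.1% MIR, 22.9% B4, 19.5% Alu and 18.6% B2. The Deu family held 7 of its SINE peaks, or 5.93% (2.9% to 11.7%), against 0.94% for C/EBPα (0.477% to 1.84%) and 0.939% for IRF8.

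**Figure D1:**
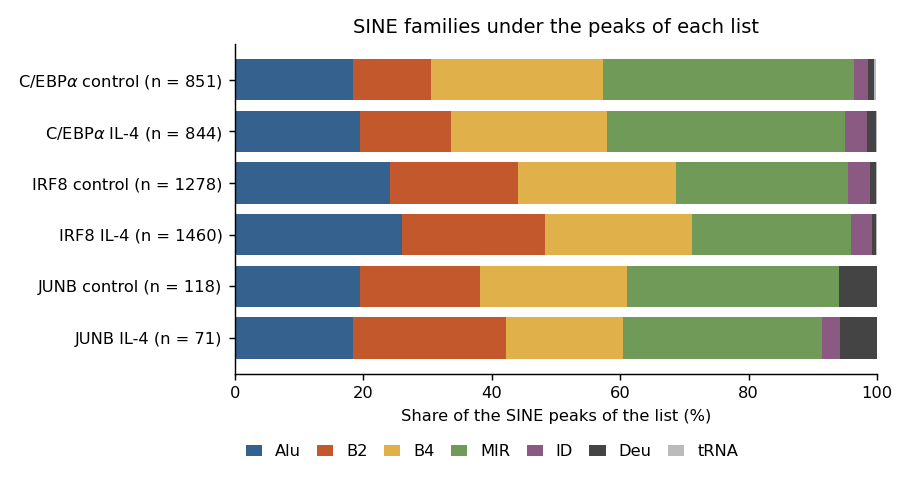
The horizontal bars give, for each of the 6 lists, the share in percent of its SINE peaks that lay on each repeat family, with the number of SINE peaks in brackets. MIR is the widest block for C/EBPα (39.2% in control), and B2 is wider for IRF8 (19.9% in control) than for C/EBPα (12.1%).

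Over the 6 lists 36 element names occurred, and the 10 most frequent held 3282 peaks (71.0%). They were MIRb (442 peaks), MIR (429), B3 (423), ID_B1 (363), RSINE1 (311), B4A (301), B3A (288), MIR3 (283), MIRc (257) and PB1D10 (185). B3 and B3A are names within the B2 family, and ID_B1, RSINE1 and B4A within B4. B3 was under 49 C/EBPα and 132 IRF8 control peaks, whereas MIRb was under 114 and 104. Letters shared by copies of a family were still found under the peaks. Of 839 distinct B2 peak positions, 83 (9.89%) held CTGAGCCATCTC within 200 bp of sequence around the peak centre, against 0.72% of positions on other SINEs and 0.206% of those not on SINEs. For Alu the letters were AGGCCAGCCTGG, in 119 of 1038 positions (11.5%). For MIR the most frequent 12 letters, CAGATGAGGAAA, were in 34 of 1401 positions (2.43%). These 12-letter words were chosen as the most frequent in their own family, so the shares are descriptions.

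C/EBPα and IRF8 peaks on Alu, B2 and B4 elements scored a little lower than the average peak. The unit of the deposited score is not stated. In the C/EBPα control list the median score was 9.82 on SINEs (9.01 to 10.3) and 11.2 over all peaks. In the IRF8 control list it was 9.16 (8.42 to 9.74) and 10.3, and in the JUNB control list 7.63 (6.79 to 8.27) and 7.88. Within C/EBPα the medians were 7.78 on Alu, 8.24 on B2, 9.21 on B4 and 11.2 on MIR. Within IRF8 they were 8.04, 8.02, 8.04 and 11.6 in the same order. The few Deu peaks scored higher, with medians of 18.5 for C/EBPα (13.5 to 73.1, n = 8) and 18.8 for IRF8 (8.82 to 99.5, n = 12), and the median of IRF8 on ID elements was 13.3 (10.1 to 21.5, n = 44). The order was another one for JUNB, where among Alu, B2, B4 and MIR the Alu peaks had the highest median (10.2, n = 23) and B4 peaks the lowest (6.47, n = 27). The SINE share went from 3.85% in the lowest quartile of C/EBPα control scores to 2.70% in the highest, and from 3.86% to 3.18% for IRF8.

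The strongest SINE peaks scored far above these medians. Scores given below for the other condition or the other factors are the highest in the region of touching peaks, and those peaks need not be centred on the SINE. For C/EBPα the highest SINE peak of the control list lay on an ID_B1 element near C3ar1 (-6899 bp from its TSS), the receptor of the complement fragment C3a, with scores of 186 in control and 190.4 after IL-4 (chr6:122862819-122863293). The highest on B2 lay on a B3 element in intron 17 of Nemf, with 152 and 158. The highest on Alu lay on a B1F element in intron 1 of Snx10 and scored 121 and 129. That on MIR lay on an MIRc element near Tpst2 and scored 137 and 119. For IRF8 the highest control SINE peak lay on a B3 element in intron 1 of Lcp1, which encodes the actin-bundling protein L-plastin, with 204 in control and 214 after IL-4 (chr14:75163899-75164676). An MIR element near Mir3076 carried an IRF8 peak of 203 and 207, and C/EBPα peaks of 59.8 and 60.3 in the same region. On B4 the highest was an ID_B1 element near Exoc6 (171 and 149), and on Alu a B1_Mm element near Slc25a3 (152 and 176). In 6 of these 8 regions the factor scored higher after IL-4, and near Tpst2 and Exoc6 lower. Over all peaks paired between conditions, 49.7% scored higher after IL-4 for C/EBPα and 55.4% for IRF8.

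For JUNB the strongest control peaks on B2, B4 and MIR elements were weaker and scored lower after IL-4. The B3A element in intron 2 of Jazf1 had 33.3 in control and 13.2 after IL-4. The B4A element near Tlr5, the flagellin receptor (-9891 bp from its TSS), had 22.0 and 16.0, and the MIR3 element in intron 2 of Oxr1 had 29.5 and 19.7. All 3 were called in both conditions with a lower score after IL-4. They were chosen for a high control score, so this comparison cannot show a change particular to them. Over all JUNB peaks paired between conditions, 26.4% scored higher after IL-4.

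Of the 4 main families, B2 had the highest share with the letters of the factor precipitated in each control list, and only for IRF8 was its interval apart from those of all 3 others. Motifs were searched on both strands of 200 bp around the peak centre, and the own motif was the C/EBP site for C/EBPα, the ETS-IRF composite or the interferon response site (GAAANNGAA) for IRF8, and the AP-1 site for JUNB. For IRF8, 128 of 254 control B2 peaks held an own motif, 50.4% (44.3% to 56.5%), against 33.7% over all IRF8 control peaks (33.3% to 34.2%), 27.2% on Alu (22.5% to 32.4%), 24.2% on B4 (19.8% to 29.2%) and 35.0% on MIR (30.1% to 40.2%). Over all SINE peaks the IRF8 share was 33.5%, close to the list as a whole, with families on both sides of it. For C/EBPα the SINE share was 40.5% (37.3% to 43.9%) against 34.3% over all peaks (33.7% to 34.9%), 40.8% on LINE and 30.8% on LTR elements. B2 (44.7%, 35.4% to 54.3%), MIR (41.9%) and B4 (41.2%) lay above all peaks and Alu (32.5%) below. For JUNB, 77 of 118 SINE peaks held an AP-1 site, 65.3% (56.3% to 73.2%), against 55.3% over all peaks (53.7% to 56.8%). It was in 18 of 22 B2 peaks (81.8%, 61.5% to 92.7%) and in 6 of 23 Alu peaks (26.1%, 12.5% to 46.5%). In the IL-4 lists B2 was again the highest for IRF8 (48.8%, 43.4% to 54.2%), whereas MIR was above B2 for C/EBPα (43.8% against 40.5%) and JUNB (72.7% against 70.6%). The AP-1 site was also frequent on control B2 peaks of C/EBPα (28.2%, against 17.2% over all its peaks) and IRF8 (23.6%, against 14.4%). The C/EBP site was rarer on IRF8 control B2 peaks (6.30%) than over all IRF8 control peaks (13.9%). In 200 bases of 32851 RefSeq promoters the C/EBP site was in 7.47%, the AP-1 site in 5.48%, the ETS-IRF composite in 5.63% and the interferon response site in 5.57%. The composite and the interferon response site overlapped each other in 14 of 4589 distinct SINE positions, and the C/EBP and AP-1 sites in 0.

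**Figure D2:**
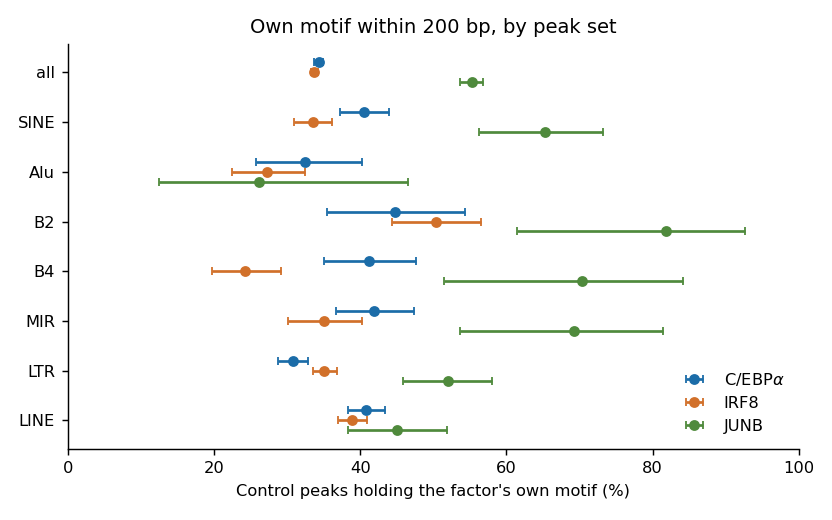
Points give the share in percent of the control peaks of a set that held the own motif of the factor within 200 bp, and bars give the Wilson 95% interval. IRF8 on B2 elements (50.4%) stands to the right of IRF8 on the other SINE families, and JUNB on Alu (26.1%) to the left of all other JUNB sets.

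The score rank also moved with the motif share. In the highest score quartile of the C/EBPα control list 57.6% of SINE peaks held a C/EBP site (49.9% to 64.9%) and 48.3% of all peaks did. In the lowest quartile the shares were 28.0% and 23.7%. For IRF8 the SINE shares were 47.7% in the highest quartile and 26.2% in the lowest, next to 48.4% and 23.9% over all peaks. JUNB control SINE peaks went the other way, with 53.8% in the highest quartile (14 of 26) and 63.3% in the lowest (19 of 30), but these intervals met. In the JUNB IL-4 list the order was not kept, with 63.2% in the highest quartile (12 of 19) and 45.8% in the lowest (11 of 24). Over all JUNB control peaks the highest quartile had 62.0%. The median distance from the peak centre to the own motif was 22.0 bp for C/EBPα SINE peaks, 32.0 bp for IRF8 and 18.5 bp for JUNB.

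Some forms of the composite site were more frequent on B2 elements than over all IRF8 peaks. GGAACTGAA was in 43 of 254 IRF8 control B2 peaks, 16.9% (12.8% to 22.0%), and in 3.21% of all IRF8 control peaks (3.04% to 3.40%). It was in 2.91% of IRF8 peaks on Alu, 4.78% on B4, 4.96% on MIR and 6.91% on LTR elements. The next form on B2, GGAATTGAA, was in 16 of 254 peaks (6.30%, 3.91% to 9.99%) and in 0.557% of all IRF8 control peaks. The form most frequent over all IRF8 peaks, GGAAGTGAA, was in 4.72% of the B2 peaks and 5.47% of all peaks. B2 peaks with GGAACTGAA had a median score of 19.2, and B2 peaks without it 7.16. Over all IRF8 control peaks these medians were 23.1 and 10.1. In the C/EBPα control list 9.71% of B2 peaks held the same letters, with a median score of 8.99 against 8.24 without them. Got1, Ppp2r5a and S100a6, shown above, had IRF8 scores of 198, 141 and 114 in control and 221, 155 and 127 after IL-4. Near Ppp2r5a and S100a6 no C/EBPα or JUNB peak was called in either condition, and at Got1, in intron 2, C/EBPα had 5.26 in control only and JUNB 20.8 in control and 9.93 after IL-4.

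Flanking letters were shared between these B2 copies. When the 43 sites were lined up on the strand reading GGAACTGAA, 26 of 40 flanking positions (20 on each side) had the same base in over 50% of the sites. For 676 sites with the same letters at IRF8 peaks in introns or between genes and not on a repeat, it was 2 of 40. The majority letters are in the line printed above. For TGACTCA at 26 JUNB sites on B2 elements 15 of 40 positions had such a majority, and for 1805 JUNB sites outside repeats 0 of 40. The C/EBP form TTGCACAA was in 28 of 228 C/EBPα peaks on B4 elements (12.3%, 8.63% to 17.2%) and 6.75% of all peaks, and 5 of 40 flanking positions had a majority. On MIR elements the most frequent C/EBP form was TTGCCCAA, in 28 of 334 peaks (8.38%, 5.86% to 11.8%) against 3.02% of all C/EBPα peaks, with 13 of 40 positions. With few sites a majority is reached more easily, so these counts are not on 1 scale. The forms lined up were chosen after their counts had been seen.

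All 7 JUNB control peaks on AmnSINE1 held at least 2 AP-1 sites within 200 bp. Among all JUNB control peaks 14.4% did (13.3% to 15.5%), and among JUNB control SINE peaks 23 of 118 (19.5%, 13.4% to 27.6%), with 7 of 22 on B2 and 0 of 23 on Alu. The 4 JUNB peaks on AmnSINE1 after IL-4 also held 2 or more. AmnSINE1 was singled out after these values were seen. Its JUNB control peaks lay near Eps8 (score 27.9), Maml3 (23.9), Tnfrsf11a (10.7), 9330111N05Rik (10.2), Gm20125 (9.76), Zc3h12c (6.79) and Ank (4.2). Tnfrsf11a encodes RANK, the receptor for the osteoclast factor RANKL, and Eps8 an actin regulator. IRF8 had a peak in all 7 of these regions in control, from 3.21 near Tnfrsf11a to 77.6 near Maml3. At the Eps8 element, in intron 1, C/EBPα scored 15.0 in control and 32.5 after IL-4, IRF8 59.4 and 99.5, and JUNB 27.9 and 12.5. The element in the region of Maml3 had the same pattern, with C/EBPα at 23.4 and 32.1, IRF8 at 77.6 and 103, and JUNB at 23.9 and 7.71. At both elements JUNB was the factor with the lower score after IL-4, but the 7 regions did not share this pattern. At Ank JUNB had 4.2 in control and 4.21 after IL-4 while IRF8 had 23.8 and 16.5, and at 9330111N05Rik JUNB had 10.19 and 10.03, and IRF8 20.5 and 39.6. Near Tnfrsf11a, Gm20125 and Zc3h12c JUNB was called in control only.

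C/EBPα peaks on SINEs, and in control IRF8 peaks on B2 elements in particular, overlapped other factors less often than the average peak of their lists. In control 50.5% of C/EBPα SINE peaks overlapped a peak of IRF8 or JUNB (47.2% to 53.9%), against 59.4% of all C/EBPα peaks (58.8% to 60.0%). The share was 43.3% on Alu, 46.6% on B2, 49.6% on B4 and 55.4% on MIR. For IRF8, 36.9% of SINE peaks overlapped a peak of another factor (34.3% to 39.5%), against 39.7% of all peaks (39.2% to 40.2%). Only 54 of 254 IRF8 B2 peaks did, 21.3% (16.7% to 26.7%), and 51.3% of those on MIR (46.0% to 56.6%). The B2 share was also the lower one at like scores. In the highest IRF8 score quartile 15 of 49 B2 peaks (30.6%, 19.5% to 44.5%) and 57.1% of all peaks (56.1% to 58.1%) overlapped another factor. In the lowest quartile the shares were 12.5% (7.13% to 21.0%) and 24.3%. After IL-4 B2 no longer stood alone among the IRF8 families. The share was then 23.0% on B2 (18.8% to 27.9%) and 22.7% on Alu (18.8% to 27.2%), against 36.1% over all peaks. JUNB peaks mostly lay with another factor, on SINEs in 83.1% of cases (75.3% to 88.8%) and over all peaks in 89.3%. Few JUNB peaks on Alu elements overlapped C/EBPα (2 of 23, 8.70%, 2.42% to 26.8%), against 54.2% of all JUNB SINE peaks (45.3% to 63.0%) and 72.3% of all JUNB peaks.

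**Figure D3:**
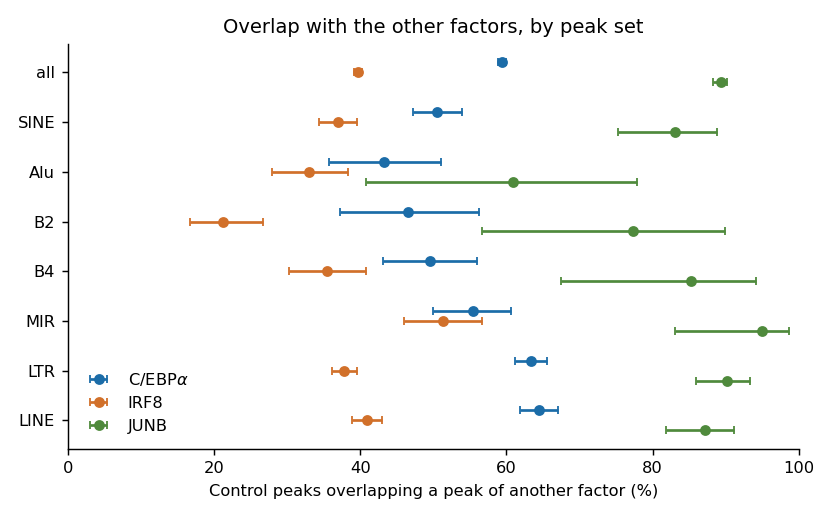
Points give the share in percent of the control peaks of a set that overlapped a control peak of another factor by at least 1 bp, and bars give the Wilson 95% interval. IRF8 on B2 (21.3%) is the lowest of the IRF8 sets shown, and MIR (51.3%) the highest.

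Merging touching peaks over the 6 lists gave 60856 regions, of which 2990 held a SINE peak. Of these, 2060 held over 1 peak, and in 738 of them (35.8%) every peak was annotated as SINE. The annotation is read at the peak centre, and centres differ between lists. All 3 factors in both conditions were found in 52 SINE regions (1.74%) and 993 regions in all (1.63%). The strongest of the 52, by their lowest score over the 6 lists, lay in intron 2 of Stap1 (an MIR element), intron 1 of Eps8 (the AmnSINE1 element), upstream of Tlr5 (B4A), in an intron near Gm5535 (MIR) and near Gm5122 (MIRc). At Stap1, an adaptor protein gene, where 1 of the 6 peaks was annotated as SINE, C/EBPα scored 124 in control and 157 after IL-4, IRF8 22.1 in both, and JUNB 26.2 and 15.5. At the Tlr5 element C/EBPα scored 58.6 and 47.8, IRF8 22.5 and 12.0, and JUNB 22.0 and 16.0. In all 5 regions the JUNB score after IL-4 was the lower one, and for IRF8 it was higher at Eps8, Gm5535 and Gm5122. Over all peaks paired between conditions, 26.4% scored higher after IL-4 for JUNB and 55.4% for IRF8.

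The next comparison asked what became of SINE peaks after 1 h of IL-4. Of the C/EBPα control SINE peaks 226 of 851 (26.6%) had no IL-4 peak, against 21.4% over all C/EBPα control peaks, so 73.4% were found again (70.4% to 76.3%) and 78.6% over all. For IRF8 327 of 1278 (25.6%) had none, against 21.4% over all IRF8 peaks, with 74.4% found again (72% to 76.7%) and 78.6% over all. For JUNB it was 80 of 118 (67.8%), against 64.2% over all, with 32.2% found again (24.4% to 41.1%) and 35.8% over all. The JUNB share was read from few peaks and lay near its background. Among IL-4 SINE peaks 205 of 844 for C/EBPα had no control peak (24.3%, 21.5% to 27.3%, against 22.0% over all), 487 of 1460 for IRF8 (33.4%, 31.0% to 35.8%, against 30.4%) and 35 of 71 for JUNB (49.3%, 38.0% to 60.7%, against 39.2%). These peaks had low scores, with medians of 5.83, 4.62 and 4.22.

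Score went with much of this. In the highest score quartile 99.4% of C/EBPα and 100% of IRF8 control SINE peaks were found again, and in the lowest 46.2% and 45.0%. Over all peaks the lowest quartiles gave 47.8% and 49.1%. In each quartile the SINE interval met that of all peaks for these factors. For JUNB the SINE share went from 3 of 30 in the lowest quartile to 84.6% (22 of 26, 66.5% to 93.8%) in the highest, and the share over all peaks from 17.3% to 65.6%.

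**Figure D4:**
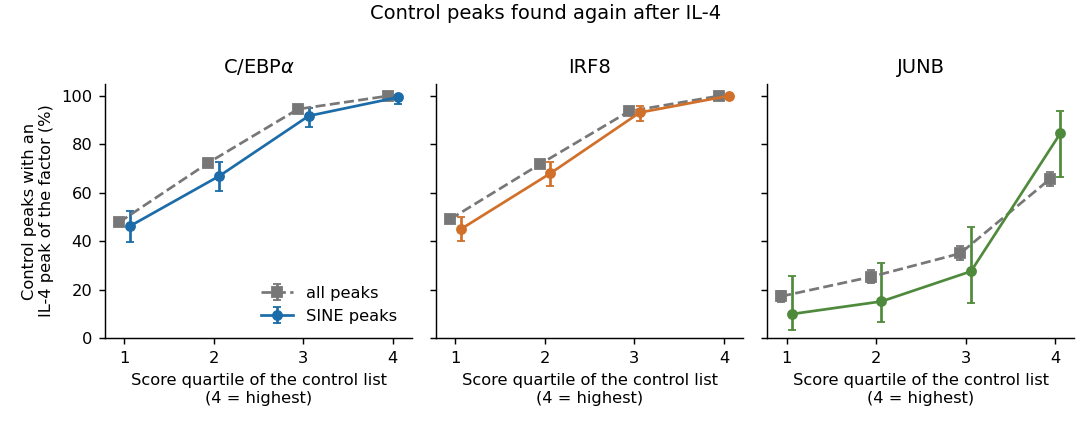
Each panel gives, for 1 factor, the share in percent of control peaks that overlapped an IL-4 peak, by score quartile of the control list, for SINE peaks (solid line) and all peaks (dashed line) with Wilson 95% intervals. C/EBPα and IRF8 SINE peaks go from 46.2% and 45.0% to 99.4% and 100%, and JUNB reaches 84.6%.

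Among the 4 main families of C/EBPα and IRF8, B2 peaks had the largest exchange by share and MIR peaks the smallest. The B2 intervals met those of Alu and B4 throughout. For C/EBPα the shares found again also had intervals that met between B2 and MIR. For C/EBPα 68.9% of B2 control peaks were found again (59.5% to 77.1%) and 76.9% of MIR (72.1% to 81.1%), and 37.2% of B2 (29.1% to 46.1%) but 16.9% of MIR IL-4 peaks (13.2% to 21.5%) had no control peak. For IRF8 69.3% of B2 (63.4% to 74.6%) and 80.8% of MIR control peaks (76.3% to 84.6%) were found again, and 43.3% (38.0% to 48.7%) and 23.1% (19.0% to 27.7%) of the IL-4 peaks were IL-4-only. On Alu and B4 the shares found again were 72.6% and 69.7% for C/EBPα, and 71.5% and 71.3% for IRF8. Their IL-4-only shares were 30.5% and 23.4% for C/EBPα, and 36.7% (32.0% to 41.6%) and 33.4% (28.6% to 38.6%) for IRF8. For JUNB 13 of 17 B2 peaks after IL-4 had no control peak (76.5%, 52.7% to 90.4%). B2 peaks had lower median scores than MIR peaks, as given above, and the part of this in the exchange was not tested. The number of B2 peaks after IL-4 was 1.17 times the control number for C/EBPα and 1.28 times for IRF8.

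At SINE peaks called in both conditions the scores differed little for C/EBPα and IRF8. Over 619 paired C/EBPα SINE peaks the median log2 ratio, IL-4 score over control score, was -0.06 (-0.12 to 0.01), and over all pairs 0.00. It was 0.08 over 935 IRF8 pairs (0.03 to 0.14) and 0.08 over all. Scores at least 2-fold higher were found at 50 C/EBPα SINE pairs (8.08%, against 7.72% over all pairs) and at least 2-fold lower at 43 (6.95%, against 6.56%). For IRF8 they were 94 higher (10.1%, against 11.3%) and 71 lower (7.59%, against 7.96%). These shares lay near their backgrounds. For JUNB the median was -0.75 over 38 pairs (-1.11 to -0.48) and -0.55 over all. Of the 38 JUNB pairs 0 were at least 2-fold higher (against 2.99% over all JUNB pairs) and 16 at least 2-fold lower (42.1%, against 29.9%). On MIR elements all 11 JUNB pairs scored lower, with a median of -1.38 (-1.62 to -0.59). Of all 1406 JUNB pairs only 26.4% scored higher after IL-4. For C/EBPα the medians were 0.19 on B2 (0.00 to 0.30, n = 71) and -0.15 on MIR (-0.20 to -0.06, n = 255).

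The single-condition SINE peaks with the highest scores were named by rule. For C/EBPα the control-only ones lay on an RSINE1 element 6165 bp from the TSS of Lyz2, the lysozyme gene (score 32.3, chr10:117275748-117276466), and on a B3A element near Mir669c (16.8). Its IL-4-only ones lay on a PB1D11 element near Arf6 (30.0) and on a PB1D10 element in intron 1 of Kif9 (22.8), where IRF8 had a peak of 66.7 in control and 121 after IL-4. For IRF8 the control-only ones lay on MIR3 near Slc35f6 (20.1) and MIRc near B3gnt8 (19.1), both with C/EBPα peaks in both conditions. The IL-4-only ones lay on B3A in intron 13 of Fxr1, nearest to Dnajc19 (27.3) and on MIR3 in intron 2 of Bbx (25.9). At the Dnajc19 element C/EBPα also had a peak after IL-4 (40.8) and none in control. JUNB control-only SINE peaks lay near Tmed10 (15.4) and Ybx3 (15.1), and the IL-4-only ones near Agpat9 (8.70) and Mir1907 (8.35), so they were weaker than the control-only ones.

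STAT6-type sites were found more often under SINE peaks called only after IL-4. This comparison was added after the values had been seen. For C/EBPα the site was in 2 of 226 control-only SINE peaks (0.885%, 0.243% to 3.17%), in 27 of 625 found in both conditions (4.32%, 2.99% to 6.21%) and in 31 of 205 IL-4-only ones (15.1%, 10.9% to 20.7%). For peaks not on SINEs these shares were 3.54%, 7.37% and 20.3%. For IRF8 the SINE shares were 4.28%, 4.63% and 8.21% (40 of 487, 6.09% to 11%), and off SINEs 3.91%, 6.69% and 12.0%. For JUNB they were 5%, 5.26% and 11.4% (4 of 35, 4.54% to 26.0%), and off SINEs 5.59%, 7.59% and 17.7%. The IL-4-only share was the highest for each factor on and off SINEs, but on SINEs its interval was apart from that of peaks found in both conditions only for C/EBPα. For IRF8 control peaks found in both conditions it was 3.46% to 6.15%, just past the lower bound of the IL-4-only interval. Read in the IL-4 lists, SINE peaks found in both conditions gave 4.38% for C/EBPα (3.05% to 6.26%) and 5.65% for IRF8 (4.37% to 7.29%). With 3 bases between TTC and GAA the shares of SINE peaks were 4.87%, 6.4% and 11.2% for C/EBPα (7.59% to 16.3% in the last) and 5.50%, 4.84% and 8.01% for IRF8, also highest among IL-4-only peaks. The site with 4 bases was in 4.53% of the promoters.

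Of the 4 main families, B2 held the site with 4 bases most often among IL-4-only C/EBPα and IRF8 peaks. Among C/EBPα IL-4-only peaks 14 of 45 on B2 held one (31.1%, 19.5% to 45.7%), and 17 of 160 on the other SINEs (10.6%, 6.74% to 16.4%). For IRF8 it was 22 of 141 on B2 (15.6%, 10.5% to 22.5%) and 18 of 346 on the others (5.20%, 3.32% to 8.07%), with 2 of 139 on Alu (1.44%). Over all IL-4-only peaks the shares were 20.1% for C/EBPα and 11.9% for IRF8, inside the B2 intervals and above those of the other SINEs. On LINE elements they were 22.9% and 15.8%. So B2 stood apart from the pooled other SINEs and not from IL-4-only peaks at large. Family by family, the C/EBPα B2 interval met those of Alu (5.62% to 23.8%), B4 (3.29% to 19.6%) and MIR (5.29% to 22.6%). The IRF8 B2 interval met those of B4 (3.06% to 12.3%) and MIR (4.97% to 17.9%), but not that of Alu (0.395% to 5.09%). For JUNB 3 of 13 B2 peaks held such a site. B2 peaks of the control lists found in both conditions held it in 8 of 71 cases for C/EBPα (11.3%, 5.82% to 20.7%) and 13 of 176 for IRF8 (7.39%, 4.37% to 12.2%), and control-only B2 peaks in 0 of 32 and 5 of 78. For 0 of 32 the interval reaches 10.7%. Read in the IL-4 lists, B2 peaks found in both conditions gave 9 of 76 (11.8%, 6.36% to 21.0%) and 19 of 185 (10.3%, 6.67% to 15.5%), and all these intervals met those of the IL-4-only B2 peaks. The family order was another one with 3 bases between TTC and GAA, which 1 of 45 C/EBPα IL-4-only B2 peaks held (2.22%, 0.393% to 11.6%), against 18.8% on B4 (10.2% to 31.9%) and 20.8% on MIR (12.0% to 33.5%). For IRF8 these shares were 10.6% on B2, 6.25% on B4 and 10.8% on MIR. IL-4-only SINE peaks with the site had median scores of 7.54 for C/EBPα and 6.46 for IRF8, against 5.46 and 4.50 without it.

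**Figure D5:**
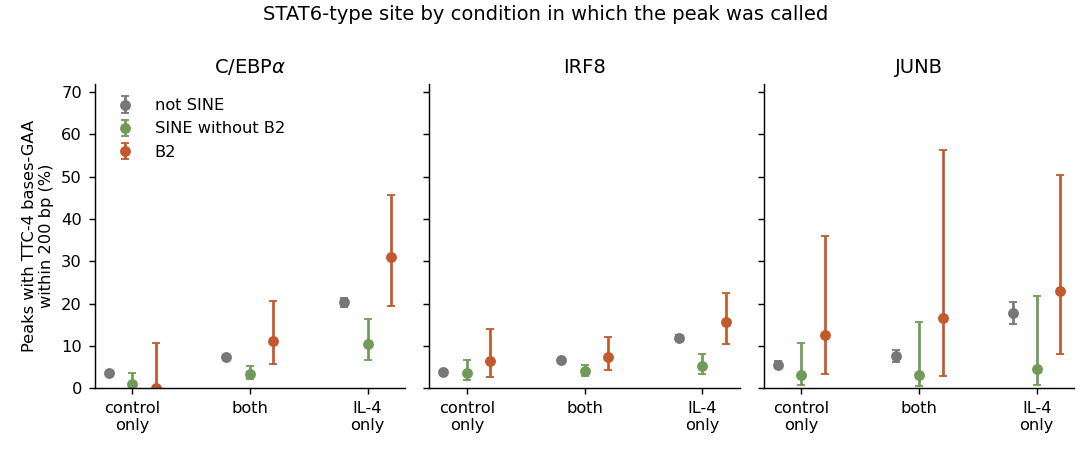
Each panel gives, for 1 factor, the share in percent of peaks with TTC, 4 bases, GAA within 200 bp, for peaks called only in control, in both conditions or only after IL-4, with Wilson 95% intervals. B2 peaks called only after IL-4 reach 31.1% for C/EBPα and 15.6% for IRF8, and the other SINEs 10.6% and 5.20%. Peaks not on SINEs reach 20.3% and 12.0%.

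Most frequent among the B2 forms were TTCCAGAGAA and TTCCAGGGAA, in 18 and 17 of 464 B2 peaks of the IL-4 lists. When the 16 distinct sites with TTCCAGAGAA were lined up, 37 of 40 flanking positions had a majority base, and 0 of 40 for 109 sites with the same letters outside repeats. The site near Camk2d, which encodes a calcium/calmodulin-dependent kinase, carried a C/EBPα peak of 16.8 after IL-4 and no other peak in either condition. At the Tex9 element C/EBPα had 15.9 and IRF8 7.13 after IL-4, with none in control. An MIRc element near Pim1 (-47037 bp from its TSS), a kinase gene that STAT factors are known to induce, had C/EBPα at 18.9 and IRF8 at 44.6 after IL-4 and no peak of any factor in control (chr17:29443899-29444118). Atp6v0a1, Cmtm7 and Patl1 carried JUNB peaks of 7.43, 5.71 and 3.78. C/EBPα and IRF8 had peaks at the Atp6v0a1 element in both conditions, IRF8 at 129 and 144.

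Nearest genes were spread widely. Of 14904 genes nearest to any region, 2448 (16.4%) were nearest to a SINE region, 2013 of them to 1 only. Rbm47, an RNA-binding protein gene, had the most with 8 SINE regions of 21, from all 4 main families, within 35635 bp of its TSS. A330032B11Rik, Cxcr4 (the CXCL12 receptor), Snx29 and Tet2 (a DNA demethylation enzyme) had 5 each. Tet2 had 39 regions in all and Cxcr4 25.

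SINE regions were also nearest to listed genes of the IL-4 response. Among 21 genes of alternative activation 5 had a SINE region (Mrc1, Ccl24, Cdh1, Socs1 and Pparg), or 23.8%, against the 16.4% over all genes with a region. Among 3 genes activated by IL-4 2 did (Klf4 and Edn1, 66.7%), among 12 repressed genes 5 (Fos, Tlr2, Nlrp3, Lyz2 and Il18, 41.7%) and among 12 macrophage transcription factor genes 5 (Cebpa, Junb, Maf, Mitf and Batf3, 41.7%). These lists are small, and the number of regions per gene was not matched. The annotation named a SINE for 1 of 2 peaks in the Socs1 and Pparg regions, 2 of 4 at Cdh1, Tlr2 and Il18, 1 of 3 at Mrc1 and 1 of 4 at Lyz2, so some scores below are of peaks centred beside the element. At Cdh1, the E-cadherin gene, a region on an ID2 element in intron 2 (chr8:106612014-106612569) had C/EBPα at 20.7 in control and 82.0 after IL-4, and IRF8 at 13.8 and 35.6. At Ccl24, a chemokine gene, a B3 element 4236 bp from the TSS had IRF8 at 36.8 and 70.9 and C/EBPα at 7.95 and 9.05. At Socs1, which encodes an inhibitor of cytokine signalling, a B1F1 element had IRF8 at 5.71 and 17.97. All 3 regions had the higher IRF8 score after IL-4, as did 55.4% of all IRF8 pairs. The Mrc1 region (ID4) had IRF8 at 32.9 and 31.1 and C/EBPα at 7.06 in control only. That of Pparg (MIRb) had C/EBPα at 9.11 and IRF8 at 4.46 in control and no peak after IL-4. At Edn1 an ID4_ element had IRF8 at 45.2 and 58.3. Klf4 had 4 SINE regions, the closest at -233068 bp from its TSS, of which the strongest, on MIR3, had IRF8 at 86.8 and 91.8.

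The repressed genes did not share a direction. At Tlr2 an RSINE1 element 1989 bp from the TSS had C/EBPα at 29.6 in control and 50.3 after IL-4, and IRF8 at 15.1 and 12.7. The Nlrp3 region, also on RSINE1, had C/EBPα at 10.4 and 15.0, and IRF8 at 11.3 after IL-4 only. At Lyz2 the RSINE1 region had C/EBPα at 32.3 and IRF8 at 3.57 in control only, and JUNB at 8.32 and 3.44. The Il18 region (MIR3) had C/EBPα at 9.01 and 7.62, and IRF8 at 21.5 and 17.9, and the Fos region on MIR had C/EBPα at 8.41 and 12.4, and IRF8 at 10.1 and 8.26. A closer Fos region on RSINE1, 14126 bp from the TSS, had IRF8 at 2.52 and 8.15. Among the transcription factor genes the strongest regions lay near Maf, where a B4A element had IRF8 at 125 and 103 and an AmnSINE1 element had IRF8 at 99.5 and 84.4 and C/EBPα at 15.0 and 11.5. Near Mitf an MIR3 element at -1051 bp from the TSS had C/EBPα at 6.96 and 21.9. Near Junb itself a B3A element had a JUNB peak of 4.86 in control only.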

How the data were processed

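ChIP-seq was done in BMDMs with antibodies to C/EBPα, IRF8 and JUNB, in 1 control and 1 IL-4 library each, after double cross-linking with DSG and formaldehyde. Per the labels and the methods of the study, the authors aligned reads with BWA 0.7.10 to mm10, used SAMtools 0.1.19 on the alignments, called peaks per sample with MACS2 2.0.10 under a q-value limit, took out blacklisted regions and annotated the peaks with HOMER 4.2. The control library for peak calling was not given in the sources used here, and either of 2 kits served for each library, so a difference of kit, depth or background between libraries cannot be told apart from IL-4. The authors deposited a score without a unit, whose lowest value was 1.30, the −log10 of 0.05, and the distance to the TSS in bp.

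From these files SINE peaks were read from the detailed annotation, which was taken as deposited and could not be checked, since the lower-case masking of the supplied genome covered only some SINE peak centres. Peaks overlapping by at least 1 bp were shared, and pairs were made one to one in order of overlap. A pair was a SINE pair when the control peak was on a SINE. A changed score was 2-fold. Motifs were searched in the supplied mm10 reference genome, in 200 bp, and promoter shares came from the RefSeq promoter table. Regions were merged where peaks touched, with the highest score per list. The 33 peaks off the named chromosomes, of which 0 were SINE peaks, were left out of sequence searches. Named peaks were the strongest control SINE peak per family and factor, the 2 strongest single-condition ones per factor and direction, the 5 strongest regions with all factors, the 5 genes with most SINE regions, and listed genes with a SINE region. Of these, 1 peak, on Alu for JUNB, is not reported here. The AmnSINE1 peaks, the motif forms, the lined-up sites and the STAT6-type sites were chosen after values were seen. Members and gene lists were chosen with earlier results of these data known. Gene names are those of the files (Emr1 for F4/80), and PU.1 is listed there as Sfpi1. Alternatives changed the score threshold, list length, denominator, chromosomes, overlap, scaling, window, condition, the spacing of the STAT6-type site and the use of B2 peaks. The scripts ran on scipy 1.17.1, pandas 2.3.3, numpy 2.4.6, matplotlib 3.10.9 and Python 3.11.15, and 15 of 15 checks on simulated peaks passed.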

Additional observations from a re-analysis of the deposited data

Results flagged for a closer look

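SINE peaks of IRF8 and JUNB moved in opposite directions after IL-4. The number of IRF8 SINE peaks after IL-4 was 1.14 times the control number, and the median log2 score ratio at those in both lists was 0.078. For JUNB the number was 0.602 times the control number and the median log2 ratio -0.754. Over all peaks the numbers were 1.12 times for IRF8 and 0.59 times for JUNB. With 1 library per group this difference between the factors was not tested.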

How the results depend on the processing

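Of 80 alternatives 49 left a value within its interval, and 31 moved it. The median log2 score ratios, the only signed values among these, kept their signs under every alternative run on them. With a score of at least 10 the SINE shares were 3.10% for C/EBPα control, 3.15% for C/EBPα IL-4, 3.07% for IRF8 control and 3.14% for IRF8 IL-4, and over intron and intergenic peaks 3.90%, 3.87%, 3.84% and 4.01%. With a score of at least 10 in all lists, 77.8% of C/EBPα, 80.7% of IRF8 and 41.7% of JUNB control SINE peaks were found again, overlap with another factor was 34.3% for C/EBPα and 28.1% for IRF8, and the own motif was in 51.4%, 41.2% and 52.8% of C/EBPα, IRF8 and JUNB peaks in that order. In 100 bp the own motif was in 29.7%, 22.6% and 51.7%. An overlap of at least 50% of the shorter peak gave 47.0% of C/EBPα SINE peaks with another factor and 71.4% of IRF8 SINE peaks found again. In the IL-4 lists 30.0% of IRF8 SINE peaks overlapped another factor. Lists of equal length by rank raised the JUNB share found again to 47.1%. Scores divided by the list median gave log2 ratios of 0.18 for IRF8 and -0.41 for JUNB. The share of IL-4-only SINE peaks with a STAT6-type site, whose alternatives were chosen after seeing the data, was 29.6% for C/EBPα and 28.9% for IRF8 at a score of at least 10 (27 and 38 peaks), 6.34% and 4.31% in 100 bp, and 10.6% and 5.20% without B2. With 3 bases between TTC and GAA it was 11.2% and 8.01%, within the intervals. No JUNB IL-4-only SINE peak scored 10. The cause was not tested beyond what each alternative leaves out. No paired analysis was possible because each group held 1 library, which also left no replicate to omit.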
